A study of Mus musculus with 92 samples.

Results

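The genes described here are 10 standard markers of the connective tissue and muscle of the gut wall: Col1a1, Col1a2, Col3a1, Dcn, Lum, Pdgfra, Acta2, Myh11, Tagln and Des. They were chosen by name, and all 10 were found among the 54532 genes of the deposited count tables. They were followed mainly in crypts and villi isolated from the intestine of mice in which CreER, a Cre recombinase switched on by tamoxifen, deletes floxed Eif4g2, the gene for a relative of the translation initiation factor eIF4G. One set of mice carried Rosa26(CreER), which acts in cells of all types, and was sampled on day 9 after the first tamoxifen dose. The other carried Vil1(CreER), which is driven by the villin promoter and acts in the intestinal epithelium, and was sampled at 3 months. In both sets the mice called heterozygous were Eif4g2(flox/+), those called homozygous were Eif4g2(flox/flox), and all received tamoxifen. The controls therefore also carried CreER and 1 floxed copy, and no untreated tissue was compared. The labels give 4 daily injections of 100 mg/kg for the Vil1(CreER) mice, and the dose of the Rosa26(CreER) mice is not given in the sources used here.

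The Rosa26(CreER) tissue comprised 5 heterozygous and 4 homozygous crypt libraries and 5 villus libraries of each genotype. The Vil1(CreER) tissue comprised 4 heterozygous and 3 homozygous crypt libraries and 4 heterozygous and 6 homozygous villus libraries. Each library came from 1 mouse, and most mice gave both a crypt and a villus library. Adult small intestinal organoids and fetal intestinal spheroids, cultures grown from epithelium, served as the reference without gut wall, although spheroids carried some collagen RNA. The organoids were Eif4g2(flox/flox) organoids with DMSO or 0.5 µM 4-hydroxytamoxifen (4-OHT), 3 each, and a second set of flox/flox, flox/+ and Eif4g2(+/+) organoids, all with Rosa26(CreER) and 4-OHT, 4 each. A-485 blocks the acetyltransferase activity of p300 and CBP, and organoids kept for 4 days with DMSO or with 3, 5 or 10 µM of it numbered 4 per dose. Of the 4 lines used at each dose, replicate 1 is labelled Eif4g2(+/+) and the others flox/flox. Spheroids with DMSO or 4-OHT numbered 6 each for flox/flox and 5 each for flox/+.

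Fibroblasts of the intestinal mucosa secrete the fibrillar collagens, whose chains Col1a1, Col1a2 and Col3a1 encode, and the small leucine-rich proteoglycans decorin and lumican, which bind those fibrils and set their spacing. Pdgfra, a receptor tyrosine kinase for platelet-derived growth factor, marks mucosal fibroblasts and is high in the telocytes that lie directly under the epithelium. Smooth muscle cells of the muscle layers, and of the thin strands that run up the villus core, use alpha-smooth-muscle actin (Acta2), smooth-muscle myosin heavy chain (Myh11), the actin-binding protein transgelin (Tagln) and the intermediate filament desmin (Des). Since isolated crypts and villi are mainly epithelium, the RNAs that adult organoids lack, such as Col3a1, Dcn and Lum, report on other cells that came along with it. In bulk RNA, fewer cells of a type and less RNA per cell cannot be told apart.

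On GRCm38 all 10 genes are protein-coding. The fibrillar collagen genes are Col1a1 (ENSMUSG00000001506, chromosome 11, 94936224 to 94953042, plus strand), Col1a2 (ENSMUSG00000029661, chromosome 6, 4504814 to 4541544, plus strand) and Col3a1 (ENSMUSG00000026043, chromosome 1, 45311538 to 45349706, plus strand). Dcn (ENSMUSG00000019929, 97479609 to 97518143) and Lum (ENSMUSG00000036446, 97565128 to 97572703) are neighbours on the plus strand of chromosome 10. Pdgfra (ENSMUSG00000029231) is at 75152292 to 75198215 on the plus strand of chromosome 5. Of the muscle genes, Acta2 (ENSMUSG00000035783) spans 34241090 to 34255336 on the minus strand of chromosome 19, and Myh11 (ENSMUSG00000018830) spans 14194535 to 14291372 on the minus strand of chromosome 16. Tagln (ENSMUSG00000032085) is at 45929619 to 45936058 on the minus strand of chromosome 9, and Des (ENSMUSG00000026208) at 75360329 to 75368579 on the plus strand of chromosome 1.

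Promoter sequence from RefSeq (GRCm38.p6) was matched for 5 of the 10 members: Col1a2, Col3a1, Pdgfra, Acta2 and Des. The 250 bases before each start were searched on both strands for the CArG box, the binding element of serum response factor that is known from smooth muscle promoters, with at most 1 base of its A/T core being another base, and for CCAAT and TATAAA. The matches are shown because they separate members that are usually grouped together. Each line gives 30 bases on the strand of the gene, 5′ to 3′, with the match in capitals.
Col1a2 (chr6:4505380-4505409, plus strand), CArG box, 228 to 219 bases before the start: taaagtgcttCCAAACTTGGcaagggcgag
Col1a2 (chr6:4505497-4505526, plus strand), CCAAT, 109 to 105 bases before the start: aaaagaatggaaCCAATttaagaagccccg
Col3a1 (chr1:45311409-45311438, plus strand), TATAAA, 117 to 112 bases before the start: actaatgcatgtTATAAAcatatgcatagg
Acta2 (chr19:34255438-34255467, minus strand), CArG box, 84 to 75 bases before the start: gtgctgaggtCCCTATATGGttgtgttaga
Acta2 (chr19:34255388-34255417, minus strand), CArG box, 34 to 25 bases before the start: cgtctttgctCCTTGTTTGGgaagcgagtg

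All 3 CArG matches had 1 core base other than A or T, and none of the 5 windows held a match with a perfect core. Among 32851 promoter windows of the same length, 8.59% held a CArG box with at most 1 such base, 1.47% one with a perfect core, 33.8% CCAAT and 12.4% TATAAA. The windows of Pdgfra and Des held no match. A match describes the letters in the window only.

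Total counts per library were 22458821 to 37611126 in the Rosa26(CreER) tissue and 23957033 to 36985500 in the Vil1(CreER) tissue, and the culture libraries held 8652040 to 32352542. Levels are given as CPM, the count of a gene scaled to the total of its library. Eif4g2 followed the genotype labels in every tissue group. In Rosa26(CreER) crypts it stood at 498 ± 31.3 CPM (SD, n = 5) in heterozygous and 119 ± 29.5 (n = 4) in homozygous mice, and in Vil1(CreER) crypts at 606 ± 43 (n = 4) and 276 ± 26.6 (n = 3). The isolated tissue was epithelial by its markers: 8 epithelial genes summed to 8147 to 10885 CPM in Rosa26(CreER) crypts, against 31.7 to 2904 CPM for the 6 fibroblast members together. Genes of the mitochondrial genome took 6.24 to 12.4% of the counts in heterozygous and 13.7 to 25.2% in homozygous Rosa26(CreER) crypts. Ddx3y, a Y-linked gene, exceeded 1 CPM in 5 of 5 heterozygous and 1 of 4 homozygous Rosa26(CreER) crypt libraries, and in 5 of 5 and 2 of 5 villus libraries, so sex and genotype partly overlap there. Their part in the results below was not tested beyond the covariate fits of the closing section.

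The first comparison asked how crypts and villi of the same genotype differ. In Rosa26(CreER) mice the RNA of fibroblasts was concentrated in the crypt libraries, while the RNA of smooth muscle was low in both and showed no such pattern. Decorin and lumican separated the 2 kinds of tissue completely, and the collagens overlapped. Of the 9 members tested in heterozygous mice 4 were called higher in crypts and none lower (5 at an unadjusted p under 0.05, and DESeq2 called Myh11 lower) by edgeR's quasi-likelihood test at an adjusted p under 0.05, while 77.1% of all 14793 genes tested were called (40.6% higher in crypts and 36.4% lower). Of the 10 tested in homozygous mice 6 were called higher and 1 lower, while 71.0% of all 15016 genes were called (38.6% higher and 32.4% lower). The share of members called was therefore below that of all genes in heterozygous mice and near it in homozygous mice.

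Dcn encodes decorin, the proteoglycan that coats collagen fibrils. In heterozygous crypts its level was 79.3, 77.6, 402, 122 and 12.7 CPM in replicates 1 to 5, and in the villi of the same mice 0.0962, 1.44, 6.06, 3.35 and 1.4 CPM. Homozygous crypts had 154, 195, 238 and 14.7 CPM (replicates 1, 3, 4 and 5) and homozygous villi 1.21, 1.31, 2.83, 3.84 and 3.3 CPM. The lowest crypt library of each genotype, replicate 5, still exceeded every villus library, and crypts were above villi in each of the 9 mice that gave both. The difference in log2 was 4.81 ± 0.97 (SE; edgeR adjusted p = 0.00076) in heterozygous and 5.06 ± 0.73 (adjusted p = 0.000184) in homozygous mice.

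Lum, the related proteoglycan lumican, showed the steepest step at a lower level. Its crypt levels were 7.94, 6.89, 31.2, 10.4 and 0.867 CPM in heterozygous and 8.65, 12.1, 32.3 and 0.505 CPM in homozygous mice. Villus levels were 0.0321, 0, 0.13, 0.146 and 0.0411 CPM in heterozygous and 0, 0.0728, 0.0349, 0.283 and 0 CPM in homozygous mice, a few reads per library. Again no villus library reached the lowest crypt library. With 9 reads over the heterozygous and 12 over the homozygous villi, Lum passed the filter on low counts through crypt libraries. It could hardly have been called lower in crypts. The log2 difference was 6.37 ± 1.01 (edgeR adjusted p = 0.000113) in heterozygous and 6.46 ± 1.24 (adjusted p = 0.00103) in homozygous mice. Dcn and Lum were the only members without overlap of the groups in either genotype, which held for 71.0% of all genes tested in heterozygous (57.4% with crypts higher) and 65.0% in homozygous mice (52.8% with crypts higher).

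The fibrillar collagens followed the same direction with overlap. Col1a1, the alpha1 chain of type I collagen, stood at 35.7, 35.7, 193, 99 and 3.93 CPM in heterozygous crypts and at 0.289, 6.33, 14.6, 13 and 5.22 CPM in the villi of the same mice. Homozygous crypts had 102, 77.6, 387 and 5.61 CPM and homozygous villi 2.91, 2.66, 5.8, 8.46 and 11.1 CPM. In replicate 5 of both genotypes Col1a1 was lower in the crypt than in the villus library, against the direction of the other mice. The log2 difference of 2.18 ± 0.94 in heterozygous mice missed the threshold (edgeR adjusted p = 0.0522), and that of 3.66 ± 0.93 in homozygous mice passed it (adjusted p = 0.00536) but not with the mouse as a block (2.92, adjusted p = 0.0838).

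Col1a2, the alpha2 chain of the same triple helix, ran at 44.9, 52.8, 233, 114 and 6.13 CPM in heterozygous crypts and 138, 142, 630.1 and 8.83 CPM in homozygous crypts. Its villus levels were 0.224, 7.55, 16.1, 14.2 and 6.45 CPM and 1.34, 2.18, 4.65, 12.5 and 12.8 CPM. The order of the libraries was close to that of Col1a1, with replicate 5 again lower in crypts than in villi. By edgeR the log2 difference was 2.30 ± 0.92 (adjusted p = 0.0384) in heterozygous and 4.20 ± 1.07 (adjusted p = 0.00531) in homozygous mice, and with the mouse as a block neither passed (2.14, adjusted p = 0.0571, and 3.77, adjusted p = 0.0533). Without heterozygous crypt replicate 3 the heterozygous difference was 1.62 (adjusted p = 0.121).

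Col3a1, which forms the thinner fibrils of type III collagen, spanned a wide range between mice. Its crypt levels were 62.2, 50.4, 393, 170 and 7.71 CPM in heterozygous and 207, 299, 1506 and 18.7 CPM in homozygous mice. The villi had 0.449, 9.37, 24.8, 14.6 and 6.25 CPM and 5.16, 5.72, 8.56, 22.3 and 22 CPM. Homozygous crypt replicate 4 held 49858 reads of this gene. The crypt excess passed the edgeR test in both genotypes, with a log2 difference of 2.57 ± 0.99 (adjusted p = 0.0334) and 4.4 ± 1.04 (adjusted p = 0.00351). With the mouse as a block the calls held (2.28, adjusted p = 0.0392, and 3.70, adjusted p = 0.0395), whereas without heterozygous crypt replicate 3 the difference was 1.70 (adjusted p = 0.115).

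Pdgfra, the receptor that marks mucosal fibroblasts, had the same direction in most mice. Heterozygous crypts had 3.74, 1.59, 17.6, 11 and 0.341 CPM and homozygous crypts 10.3, 19.6, 110.5 and 1.14 CPM. Villi had 0.224, 0.864, 2.04, 1.93 and 0.781 CPM and 0.751, 0.837, 3.11, 2.83 and 2.72 CPM. The crypt and villus ranges overlapped in both genotypes, and homozygous crypt replicate 4 stood far above the rest. The log2 difference was 1.51 ± 0.89 (edgeR adjusted p = 0.139) in heterozygous and 3.20 ± 1.01 (adjusted p = 0.0167) in homozygous mice, and the latter was 1.51 (adjusted p = 0.116) without crypt replicate 4 and 2.02 (adjusted p = 0.158) with the mouse as a block.

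The 4 smooth muscle genes together summed to 1.11 to 5.33 CPM in heterozygous and 1.6 to 12.4 CPM in homozygous crypts, and to 0.866 to 5.2 and 2.22 to 5.58 CPM in villi. Acta2 stood at 0.431, 0.627, 1.75, 0.712 and 0.124 CPM in heterozygous crypts and 1.69, 1.82, 7.07 and 0.425 CPM in homozygous crypts. The same gene was at 0.128, 0.448, 0.91, 0.364 and 0.247 CPM in heterozygous villi and 0.359, 0.473, 1.26, 0.598 and 1.52 CPM in homozygous villi. Its ranges overlapped in both genotypes and its log2 differences, -0.21 and 0.85, did not pass the edgeR test (adjusted p = 0.783 and 0.305). Des had 0.503, 0.668, 2.93, 1.34 and 0.217 CPM in heterozygous crypts and 0.128, 1.31, 2.69, 0.729 and 0.616 CPM in their villi. Homozygous crypts had 1.58, 3.55, 3.96 and 0.346 CPM of Des and villi 0.947, 0.583, 1.78, 1.26 and 2.43 CPM, again with overlap (log2 -0.99, adjusted p = 0.261, and -0.11, adjusted p = 0.882, by edgeR).

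Tagln and Myh11 had negative fitted differences between crypts and villi where they were tested. Tagln, an early marker of the smooth muscle lineage, had 0.898, 0.292, 0.489, 0.49 and 0.774 CPM in heterozygous crypts and 0.609, 0.8, 0.13, 0.437 and 0.288 CPM in villi. Its homozygous crypts had 0.226, 0.55, 1.18 and 0.638 CPM and villi 0.914, 0.947, 0.839, 0.661 and 0.497 CPM. The groups overlapped, and Tagln was the 1 member called lower in homozygous crypts, by a log2 difference of -1.12 ± 0.42 (edgeR adjusted p = 0.0355), which did not hold with the mouse as a block (-1.14, adjusted p = 0.092) or in 7 of the 9 fits that left out 1 library. Myh11, the myosin of contractile muscle, was at 0 to 0.267 CPM in heterozygous crypts and 0 to 1.47 CPM in their villi and was too low to be tested there. In homozygous mice its crypts had 0.226, 1.23, 0.242 and 0.186 CPM and its villi 0.49, 0.218, 1.15, 0.786 and 1.14 CPM, with a log2 difference of -1.59 ± 0.68 (edgeR adjusted p = 0.0556) that passed with the mouse as a block (-2.13, adjusted p = 0.0168).

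These log2 differences between crypts and villi are on edgeR's TMM scale, which centres the bulk of genes near 0, and differ from the ratio of the CPM values. Each fit computed its own TMM factors on its 2 groups. With all 19 Rosa26(CreER) libraries scaled together, the factor was 1.32 to 1.52 in heterozygous crypts and 0.678 to 0.835 in heterozygous villi. That scaling lowers crypt minus villus differences by 0.95 on the log2 scale (0.87 in homozygous mice), and the factors of the fits can differ from it. For the collagens and proteoglycans the scaling of the fits does not turn the direction. For Acta2, Tagln and Des it does in heterozygous mice. For Acta2 the mean was 0.729 CPM in crypts and 0.419 CPM in villi, and the fitted difference was -0.21. Tagln likewise had means of 0.589 and 0.453 CPM and a fitted difference of -0.58 there. Des had means of 1.13 and 1.09 CPM and a fitted difference of -0.99 in heterozygous mice, and 2.36 and 1.4 CPM and -0.11 in homozygous mice.

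**Figure D1:**
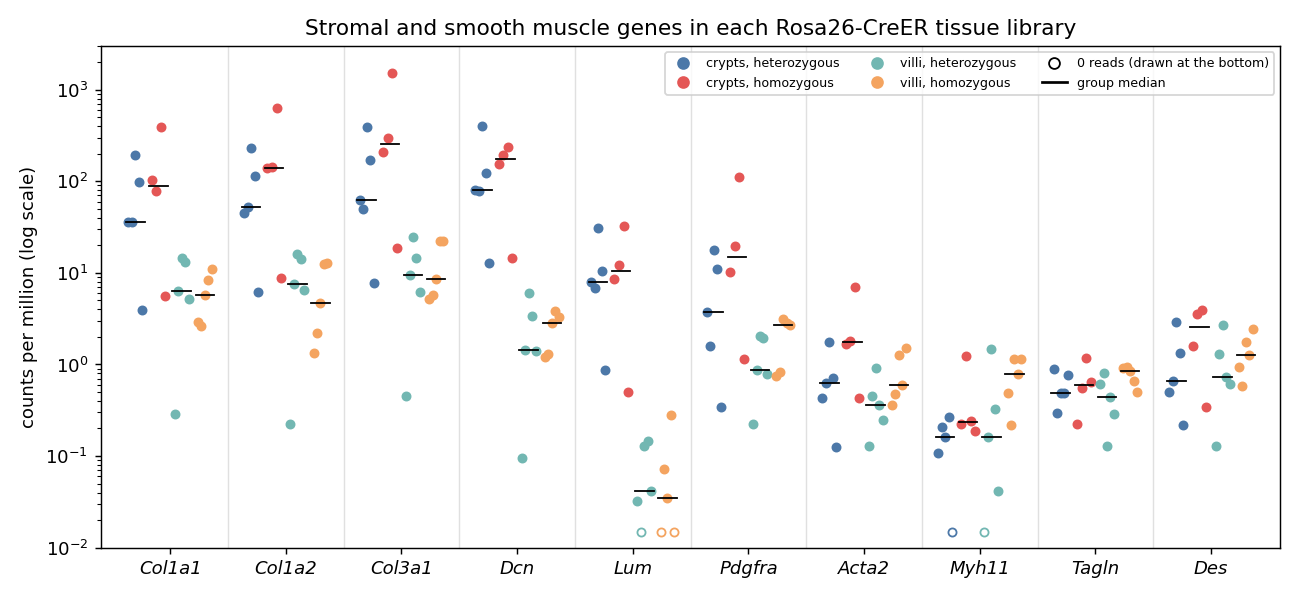
Level of each of the 10 genes in every Rosa26(CreER) library, in CPM of the library total on a log axis. Each point is 1 library, bars are group medians and open circles mark libraries with 0 reads. Dcn and Lum in crypts lie above all villus libraries, while Acta2, Myh11, Tagln and Des overlap.

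Compared per kilobase of gene length, Dcn led in heterozygous Rosa26(CreER) crypts at a mean of 23.7 ± 26.1 CPM per kb (SD, n = 5). Col3a1 followed at 13.9, Col1a1 at 11.2, Col1a2 at 7.25 and Lum at 4.68, none apart from its neighbour beyond the spread between mice. Pdgfra at 0.685, Acta2 at 0.409, Des at 0.301 and Tagln at 0.296 came next, and Myh11 was last at 0.0197 CPM per kb. In homozygous crypts Col3a1 came first at 51.7 ± 68.8 (n = 4), ahead of Dcn at 25.8 ± 16.6, with the same overlap. In villi the order changed: Col1a1 led at 1.2 ± 0.894 in heterozygous mice, Col3a1 at 1.3 ± 0.886 in homozygous mice, and Lum was last in both (0.0285 and 0.0319 CPM per kb).

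The spread between mice was as large as many of the differences above. The 6 fibroblast genes together ran from 31.7 to 1269 CPM over heterozygous crypts, a 40-fold range, and from 49.5 to 2904 CPM over homozygous crypts, a 58.7-fold range. Within a mouse the crypt library held 179, 8.79, 19.9, 11.1 and 1.58 times the fibroblast CPM of the villus library in heterozygous replicates 1 to 5. In homozygous mice the ratio was 54.3, 29.8, 57.8 and 0.952 in replicates 1, 3, 4 and 5. Replicate 5 had the lowest ratio in each genotype.

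Crypt and villus libraries also differed in the balance among these genes, which does not depend on scaling. Reads of Dcn per read of Col1a1 were 1.23 to 3.22 in heterozygous crypts and 0.227 to 0.417 in heterozygous villi. Every homozygous villus library was at 0.297 or above and below every homozygous crypt library. Homozygous crypts had 0.615 in replicate 4, the library with the highest collagen and Pdgfra, and up to 2.62 in the others. Crypt libraries thus held more Dcn per read of Col1a1 than villus libraries, with no overlap in either genotype. Per read of Col3a1 the homozygous groups overlapped, since crypt replicate 4 was at 0.158 and the villi at 0.15 to 0.331.

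Markers of other cell types moved with the fibroblast genes. The mesothelium, the cell sheet on the outer face of the gut, was followed by Msln, Upk3b, Wt1 and Lrrn4. Their sum was 11.5 to 329 CPM in heterozygous and 15.8 to 154 CPM in homozygous crypts, and 0.385 to 5.11 and 0.979 to 2.05 CPM in villi. All 4 of 4 were called higher in crypts by edgeR in both genotypes, with a median log2 difference of 4.69 and 5.42, against a median of 0.09 over all genes tested in heterozygous mice. Of all genes tested 40.6% were called higher in crypts in heterozygous and 38.6% in homozygous mice. Wt1 stood at 0.984 to 27.2 CPM in crypts and at most 0.563 CPM in villi, and at 0 in all 34 adult organoid libraries. Msln had a median of 243 CPM in those organoids, and Upk3b one of 7.6 CPM, so both are also expressed in epithelial culture.

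Immune and vascular genes were followed in the same way. The sum of 12 immune markers was 199 to 619 CPM in heterozygous crypts and 127 to 2641 CPM in homozygous crypts, where the highest was replicate 4 and the lowest replicate 5, as for the fibroblast genes. In villi it was 92.5 to 354 and 118 to 212 CPM. Endothelial markers summed to 23.9 to 39.3 CPM in heterozygous and 11.5 to 52.5 CPM in homozygous crypts, and pericyte markers to 0.96 to 5.17 and 1.09 to 7.16 CPM. The part of these cells in the crypt excess of the fibroblast genes was not tested.

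**Figure D2:**
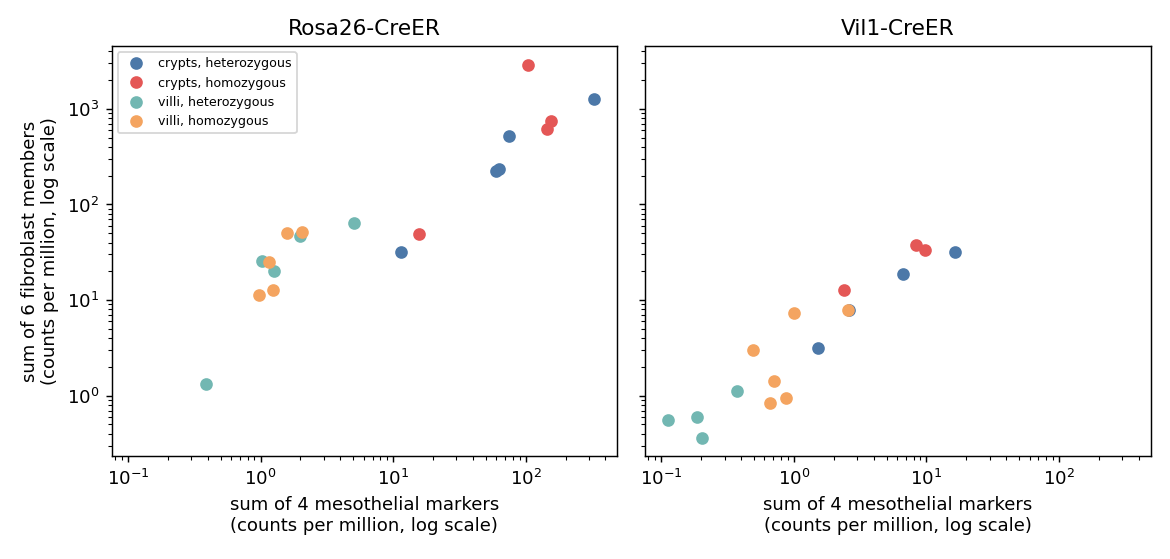
Sum of the 4 mesothelial markers (horizontal, CPM) and of the 6 fibroblast genes (vertical, CPM), 1 point per library, log axes, Rosa26(CreER) left and Vil1(CreER) right. Crypt libraries lie above and to the right of most villus libraries; in Rosa26(CreER) mice they span 31.7 to 2904 CPM of fibroblast genes.

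In the Vil1(CreER) mice all 10 genes were low, and type III collagen and decorin were called higher in crypts in both genotypes. Of 4 members tested in heterozygous mice 3 were called higher in crypts and none lower, and 67.9% of all 15757 genes tested were called (35.2% higher and 32.7% lower). Over the 4 heterozygous villus libraries Col3a1 had 15 and Dcn 13 reads, so both passed the filter on low counts through crypt libraries. Such genes can hardly be called lower in crypts, so the shared direction of these calls is not independent support. In homozygous mice 4 of 8 were called higher and none lower, and 69.4% of all 16059 genes were called (36.3% higher and 33.1% lower). The 2 sets of mice were counted and normalised in separate tables, so levels in them are given side by side with no test.

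Dcn was again the clearest. It stood at 11, 20.1, 1.79 and 3.81 CPM in heterozygous crypts and at 0.0811, 0.373, 0 and 0 CPM in villi of the same mice, where a count of 0 allows up to 3 reads. Homozygous crypts had 18.4, 17 and 5.23 CPM and homozygous villi 1.74, 0.61, 0.208, 2.45, 0.14 and 0.297 CPM. The groups did not overlap in either genotype. By edgeR the log2 difference was 5.60 ± 1.16 (adjusted p = 0.00273) and 3.61 ± 0.72 (adjusted p = 0.000938).

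Col3a1 showed the same separation. Its levels were 4.51, 6.83, 0.62 and 2.26 CPM in heterozygous crypts against 0, 0.373, 0.0374 and 0.112 CPM in villi (log2 4.05 ± 0.94, edgeR adjusted p = 0.00386). Homozygous crypts had 9.85, 10.5 and 3.5 CPM against 2.68, 0.992, 0.249, 2.45, 0.349 and 0.379 CPM in villi (2.42 ± 0.67, adjusted p = 0.00763). Type III collagen was thus apart between crypts and villi in these mice although it overlapped in the Rosa26(CreER) set.

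Type I collagen was lower still. Col1a1 had 1.36, 1.83, 0.345 and 1.06 CPM in heterozygous crypts and 0.162, 0.17, 0.412 and 0.411 CPM in villi, which overlapped (log2 1.37 ± 0.53, edgeR adjusted p = 0.0386; 1.25, adjusted p = 0.111, with the mouse as a block). Homozygous crypts had 4.93, 2.44 and 1.89 CPM and villi 1.04, 0.305, 0.125, 1.44, 0.0698 and 0.243 CPM, without overlap (2.24 ± 0.71, adjusted p = 0.0151; 0.0938 without crypt replicate 1). Col1a2 had 1.78, 2.1, 0.241 and 0.599 CPM in heterozygous crypts and 0.0405, 0.17, 0.0748 and 0.0373 CPM in villi, too few reads for the test. Homozygous crypts had 3.88, 3.36 and 1.61 CPM of Col1a2 and villi 1.08, 0.763, 0.125, 1, 0.14 and 0.0541 CPM, also without overlap (2.18 ± 0.70, adjusted p = 0.0163; 0.0666 without crypt replicate 1). Separation of the groups by CPM held for Col1a2, Col3a1 and Dcn in heterozygous mice, against 64.5% of all genes tested (48.3% with crypts higher). In homozygous mice it held for these, Col1a1 and Lum, against 63.0% (41.3% with crypts higher). Col1a2 in heterozygous and Lum in homozygous mice were not among the genes tested.

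The other members gave few reads. Lum was at 0.0635, 0.396, 0 and 0.136 CPM in heterozygous and 0.751, 0.336 and 0.275 CPM in homozygous crypts, with 0 reads in all 4 heterozygous villus libraries and up to 0.209 CPM in homozygous villi. Acta2 spanned 0.0345 to 0.793 CPM in heterozygous and 0.214 to 3.71 CPM in homozygous crypts, and Des 0.0345 to 0.218 and 0.0786 to 0.275 CPM. Myh11 had 0.209, 0.183 and 0.432 CPM in homozygous crypts and 0.557, 0.801, 0.499, 5.42, 0.14 and 0.135 CPM in homozygous villi, with a log2 difference of -2.37 ± 1.14 (edgeR adjusted p = 0.0845) that passed with the mouse as a block (-2.79, adjusted p = 0.00549). Tagln, like Myh11 and Des, was found in every library. Tagln stood at 0.698 to 0.896 CPM in heterozygous crypts and 0.34 to 1.3 CPM in their villi. Per kilobase Dcn ranked first in Vil1(CreER) crypts (1.57 in heterozygous and 2.32 CPM per kb in homozygous mice) and Tagln first in villi (0.403 and 0.722 CPM per kb).

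Mesothelial markers were higher in crypts here as well, with 3 of 3 tested called in heterozygous and 4 of 4 in homozygous mice by edgeR. Of all genes tested 35.2% and 36.3% were called higher in crypts. The mesothelial markers were low in this set. Their sums were 1.52 to 16.3 and 2.4 to 9.83 CPM in heterozygous and homozygous crypts and 0.112 to 0.373 and 0.496 to 2.57 CPM in villi. Dcn per read of Col1a1 was 3.59 to 11 in heterozygous crypts, 2.77 to 6.95 in homozygous crypts and 1.22 to 2 in homozygous villi. In homozygous mice the crypts were thus above the villi in this ratio under both drivers.

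**Figure D3:**
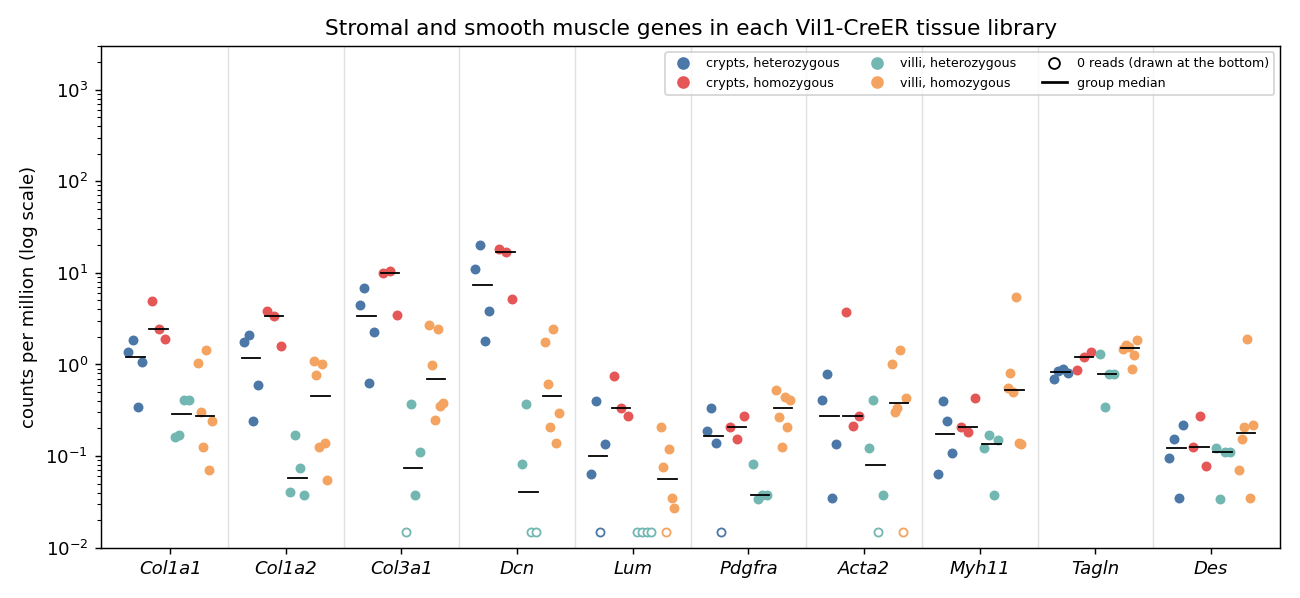
Level of each of the 10 genes in every Vil1(CreER) library, in CPM of the library total on a log axis, with 1 point per library, bars at group medians and open circles at 0 reads. Dcn and Col3a1 in crypts lie above all villus libraries of the same genotype, and Tagln lies between 0.34 and 1.84 CPM.

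The second comparison asked what loss of both Eif4g2 copies did to these genes, homozygous against heterozygous. In Rosa26(CreER) crypts no member passed the test. Of 9 members tested 0 were called by edgeR (1 at an unadjusted p under 0.05, and 1, Acta2, by DESeq2), while 20.2% of all 15846 genes tested were called (8.63% higher and 11.6% lower). No member separated the genotypes by CPM, which 18.2% of all genes did (4.14% with homozygous higher). All 9 fitted differences were above 0, with a median log2 difference of 1.2 against 0.04 over all genes, and 1 library, homozygous replicate 4, had the highest crypt level of Col1a1, Col1a2, Col3a1, Lum, Pdgfra, Acta2, Tagln and Des.

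By role, the collagens differed by 1.10 ± 1.11 (Col1a1, edgeR adjusted p = 0.51), 1.48 ± 1.09 (Col1a2, adjusted p = 0.362) and 2.01 ± 1.19 (Col3a1, adjusted p = 0.255) on the log2 scale. Without homozygous replicate 4 the difference of Col3a1 was 0.53 (adjusted p = 0.799). The proteoglycans had smaller fitted differences than the collagens, 0.29 ± 0.92 (Dcn, adjusted p = 0.848) and 0.36 ± 1.03 (Lum, adjusted p = 0.833). Whether the collagens and the proteoglycans differ in this was not tested.

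Pdgfra had the largest fitted difference, 2.47 ± 1.24 (edgeR adjusted p = 0.183), and 0.74 (adjusted p = 0.708) without homozygous replicate 4. Acta2 followed at 2.04 ± 0.84 (edgeR adjusted p = 0.113). Acta2 passed by DESeq2 (adjusted p = 0.0413) and, in edgeR, without homozygous replicate 5 (2.41, adjusted p = 0.0343), and it was at 1 (adjusted p = 0.416) without replicate 4. Des at 1.20 ± 0.81 (adjusted p = 0.318) and Tagln at 0.21 ± 0.46 (adjusted p = 0.774) did not pass either, and Myh11 was too low for the test. The 12 immune markers, all with positive fitted differences and none called, had a median of 1.87 in the same crypts, and the 4 mesothelial markers a median of 0.11 with none called.

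In Rosa26(CreER) villi 0 of 9 members were called by edgeR (0 at an unadjusted p under 0.05, and 0 by DESeq2), while 33.2% of all 13579 genes were called. No member separated the genotypes by CPM, against 19.4% of all genes. The median log2 difference of the members was 0.23, against -0.01 over all genes. The collagens and decorin did not pass: Col1a1 at -0.47 ± 0.77 (edgeR adjusted p = 0.677), Col1a2 at -0.52 ± 0.90 (adjusted p = 0.695), Col3a1 at 0.08 ± 0.81 (adjusted p = 0.95) and Dcn at -0.10 ± 0.76 (adjusted p = 0.933). Pdgfra (0.70 ± 0.60), Acta2 (0.90 ± 0.56), Tagln (0.68 ± 0.41), Myh11 (0.82 ± 0.92) and Des (0.23 ± 0.64) had positive fitted differences that missed the threshold. Myh11 in heterozygous villi rested on replicate 3, at 1.47 CPM with the others at or below 0.328, and without that library its difference was 2.43 (edgeR adjusted p = 0.033).

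In Vil1(CreER) crypts, where the recombinase acts in the epithelium and not in the stroma, 1 of 7 members tested was called, higher in homozygous mice (2 at an unadjusted p under 0.05, and 2 by DESeq2). Over all 16954 genes 29.3% were called (11.6% higher). Col1a1 was that gene: its log2 difference was 1.62 ± 0.53 (edgeR adjusted p = 0.0493), and the levels above, 1.89 to 4.93 CPM in homozygous and 0.345 to 1.83 CPM in heterozygous crypts, did not overlap, as was the case for 33.7% of all genes (8.87% with homozygous higher). The call held in 1 of 7 fits that left out 1 library, the one without heterozygous replicate 2 (1.91, adjusted p = 0.0254). The difference was 1.03 (adjusted p = 0.22) without homozygous replicate 1.

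The other fibroblast genes of these crypts had positive fitted differences that missed the threshold. Col1a2 differed by 1.5 ± 0.65 (edgeR adjusted p = 0.123, DESeq2 adjusted p = 0.0498), Col3a1 by 1.34 ± 0.71 (adjusted p = 0.21; 1.44, adjusted p = 0.0322, with the replicate number as a block), Dcn by 0.75 ± 0.84 (adjusted p = 0.552) and Lum by 1.74 ± 0.90 (adjusted p = 0.188). Acta2, at 0.413, 0.793, 0.0345 and 0.136 CPM in heterozygous and 3.71, 0.214 and 0.275 CPM in homozygous crypts, differed by 2.25 ± 1.23 (adjusted p = 0.22), and by -0.35 without homozygous replicate 1. Tagln stood at 0.698, 0.854, 0.896 and 0.816 CPM and at 0.877, 1.22 and 1.38 CPM, with 0.64 ± 0.31 (adjusted p = 0.168). Pdgfra, Myh11 and Des were too low for the test in these crypts. Mitochondrial transcripts took 17.5 to 30.8% of the counts in heterozygous and 30.4 to 40.3% in homozygous crypts of this set. Of the 12 immune markers 4 were called higher in these homozygous crypts, against 11.6% of all genes, led by Csf1r (1.89 ± 0.29, edgeR adjusted p = 0.00238). Of the 4 mesothelial markers none was called (median 0.12). The part of the immune and mesothelial genes in the Col1a1 difference was not tested.

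In Vil1(CreER) villi 2 of 5 members tested were called, both higher in homozygous mice (2 at an unadjusted p under 0.05, and 5 by DESeq2), while 42.5% of all 15107 genes were called (20.9% higher). Over the 4 heterozygous libraries the called genes had only 15 (Col3a1) and 13 (Myh11) reads, and they passed the filter on low counts through homozygous libraries. Genes kept in this way can hardly be called lower, so the shared direction of these calls is not independent support. Col3a1 had 0, 0.373, 0.0374 and 0.112 CPM in heterozygous villi and 2.68, 0.992, 0.249, 2.45, 0.349 and 0.379 CPM in homozygous villi, a log2 difference of 2.91 ± 0.93 (edgeR adjusted p = 0.023). Its groups overlapped through heterozygous replicate 2. The call was lost without heterozygous replicate 1, 3 or 4 (adjusted p = 0.0579, 0.0649 and 0.0608), and the difference ranged from 2.56 to 4.27 over the 8 such fits in which the gene was tested.

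Myh11 was the other called gene, at 3.04 ± 1.07 (edgeR adjusted p = 0.0361). Heterozygous villi had 0.122, 0.17, 0.0374 and 0.149 CPM and homozygous villi 0.557, 0.801, 0.499, 5.42, 0.14 and 0.135 CPM, so 2 homozygous libraries lay within the heterozygous range and replicate 4 far above it. Without homozygous replicate 1, 2, 3 or 4 the gene no longer passed the filter on low counts, and without any 1 heterozygous library it was not called. That replicate 4 also had the highest Des, 1.89 CPM with the others of its group at or below 0.216. Its Acta2, 1.44 CPM, was the highest of its group as well, while its Tagln, 0.883 CPM, was the lowest.

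Pdgfra was the 1 member whose groups did not overlap in Vil1(CreER) villi. Of the genes tested by edgeR, which did not include Pdgfra, 27.9% did not overlap (15.2% with homozygous higher). Pdgfra had 0.0811, 0.034, 0.0374 and 0.0373 CPM in heterozygous and 0.522, 0.267, 0.125, 0.441, 0.209 and 0.406 CPM in homozygous villi. The edgeR filter left it out, since the heterozygous values are 2 reads in 1 library and 1 in each of the others, and DESeq2, which tested it, gave 2.64 (adjusted p = 0.00871). DESeq2 also called Col1a2 (2.49, adjusted p = 0.0211) and Dcn (2.75, adjusted p = 0.0151), both left out by the edgeR filter. Over the heterozygous libraries Pdgfra had 5 reads, Col1a2 9 and Dcn 13. With so few reads these genes could hardly be called lower, so the shared direction of these DESeq2 calls is not independent support. Col1a1 (0.71 ± 0.73, edgeR adjusted p = 0.458), Acta2 (1.77 ± 0.97, adjusted p = 0.158) and Tagln (0.68 ± 0.39, adjusted p = 0.172) were not called. The mesothelial gene Upk3b, the only one of its list tested there, was higher in homozygous villi by 3.03 ± 0.51 (edgeR adjusted p = 0.000423). All 4 genes of that list together had only 0.112 to 0.373 CPM in heterozygous villi. Upk3b thus also passed the filter on low counts through homozygous libraries and could hardly be called lower. Its part in the higher Col3a1 was not tested. Upk3b had a median of 7.6 CPM in adult organoids, so it is also expressed in epithelial culture.

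Whether the genotype difference itself differed between crypts and villi was tested as an interaction. In Rosa26(CreER) mice 0 of 10 members were called by edgeR (0 at an unadjusted p under 0.05, and 0 by DESeq2), against 11.5% of all genes (4.86% higher and 6.68% lower), with fitted values from -0.58 (Tagln) to 1.87 (Col1a2). In Vil1(CreER) mice 0 of 8 were called (0 at an unadjusted p under 0.05, and 0 by DESeq2), against 15.5% of all genes (6.14% higher and 9.38% lower), from -2.50 (Myh11) to 0.87 (Col1a1). The smallest adjusted p was 0.419 for the first and 0.205 (Pdgfra) for the second. In Vil1(CreER) mice Col3a1 was called in villi and not in crypts, and Myh11 was called in villi and too low for the test in crypts. Neither is therefore shown to be a difference between the tissues. Crypt against villus and genotype comparisons use the same libraries and are not independent.

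**Figure D4:**
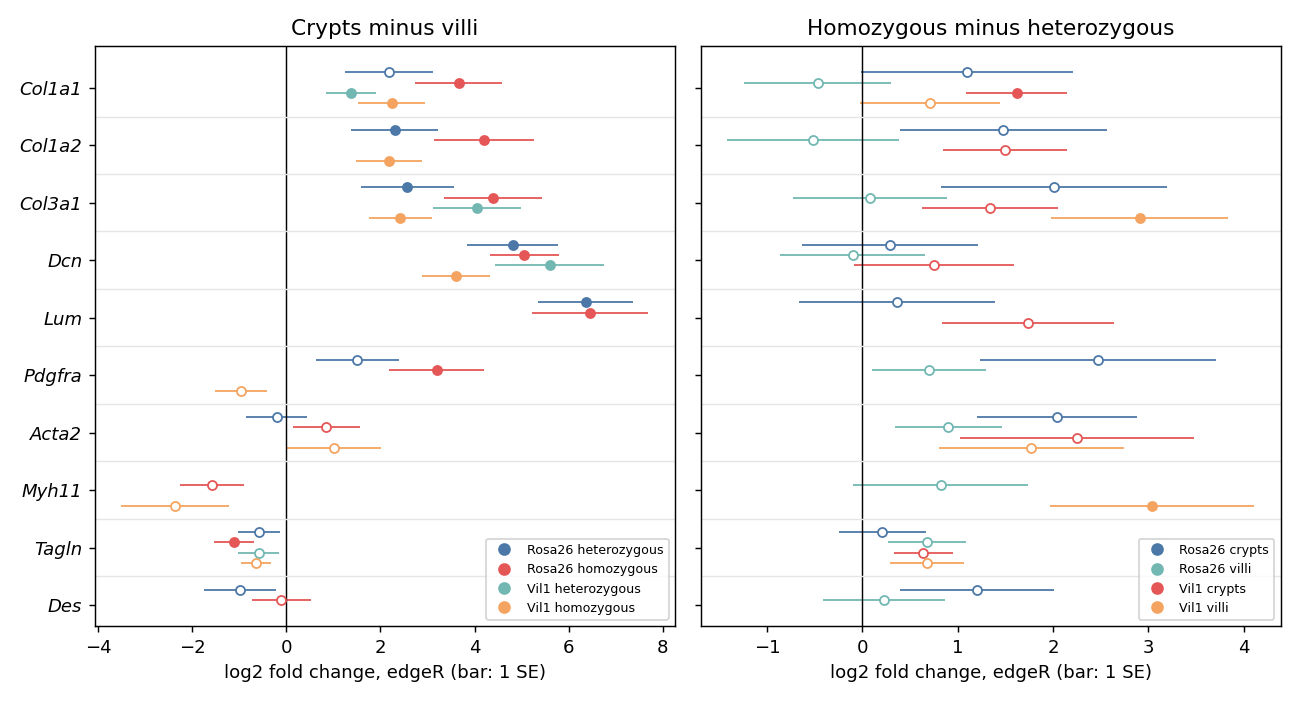
Log2 differences of the 10 genes ± 1 SE from edgeR, crypts minus villi on the left and homozygous minus heterozygous on the right. Filled points passed at an adjusted p under 0.05 and open points did not. On the left the filled points are collagens and proteoglycans (Col1a1 in Rosa26(CreER) heterozygous mice is open), with Pdgfra and, below 0, Tagln in Rosa26(CreER) homozygous mice, and on the right Col1a1 in Vil1(CreER) crypts and Col3a1 and Myh11 in Vil1(CreER) villi are filled.

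Other genes of the matrix and its assembly gave mixed counts. Of all genes tested, 20.2% were called in Rosa26(CreER) crypts (8.63% higher, 11.6% lower) and 33.2% in villi (15.0% and 18.2%). In the Vil1(CreER) set it was 29.3% in crypts (11.6% and 17.7%) and 42.5% in villi (20.9% and 21.6%). These shares are the reference for every list below. Of 18 further fibroblast matrix genes 15 were tested in Rosa26(CreER) crypts and none was called by edgeR (13 of 15 fitted differences were above 0, median 1.01). In Rosa26(CreER) villi 1 of 12 was lower, Fbln1 (-0.97 ± 0.34, adjusted p = 0.0478), whose product is an elastic-fibre protein. In Vil1(CreER) crypts 1 of 13 was higher, Bgn (2.33 ± 0.60, adjusted p = 0.0199), which encodes biglycan, a proteoglycan akin to decorin. There 2 were lower, Fbln2 the most (-1.62 ± 0.43, adjusted p = 0.0239). The Vil1(CreER) villi had 1 of 2 higher, Col6a1 (2.58 ± 0.90, adjusted p = 0.0335), and 1 lower, Fbln1 (-0.93 ± 0.19, adjusted p = 0.0017). Fbln1 had a median of 94.6 CPM in adult organoids, whereas Col6a1 and Bgn had a median of 0 there. Fbln1 and Sparc were the matrix genes with the highest mean level in Rosa26(CreER) tissue (307 and 51.4 CPM), and Fbln1 and Col6a1 in Vil1(CreER) tissue (137 and 1.07 CPM).

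Of 10 genes that process collagen after its synthesis 5 to 10 were tested in each comparison, and the shares called over all genes were those given above (20.2% and 33.2% in Rosa26(CreER) crypts and villi, 29.3% and 42.5% in the Vil1(CreER) set). None of 10 was called in Rosa26(CreER) crypts, and in Rosa26(CreER) villi 2 of 9 were higher and 2 lower. Pcolce, an enhancer of procollagen cleavage, was higher there (2.35 ± 0.44, edgeR adjusted p = 0.00245), and Bmp1, the protease that it enhances, was lower (-3.33 ± 0.77, adjusted p = 0.00927). The same 2 genes led in Vil1(CreER) villi, with 2 of 5 higher and 2 lower, Pcolce at 1.98 ± 0.26 (adjusted p = 6.89e-05) and Bmp1 at -3.35 ± 0.28 (adjusted p = 2.75e-06). In Vil1(CreER) crypts 1 of 9 was higher, P4ha1, a collagen prolyl hydroxylase subunit (0.85 ± 0.22, adjusted p = 0.0208), and 1 lower, Bmp1 (-3.07 ± 0.39, adjusted p = 0.00102). Bmp1 had a median of 9.49 CPM and Pcolce of 2.35 CPM in adult organoids, where Col3a1 was at 0 reads, so both are also expressed in epithelial culture. Bmp1 and Serpinh1 had the highest mean level of the list in Rosa26(CreER) tissue (32.4 and 22.1 CPM), and Bmp1 and P4ha1 in Vil1(CreER) tissue (20 and 8.13 CPM).

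Basement membrane genes, which both epithelium and stroma supply, had 1 of 8 higher and 1 lower in Rosa26(CreER) crypts, Lamc1 (1.04 ± 0.26, edgeR adjusted p = 0.0223) and Nid2 (-1.19 ± 0.29, adjusted p = 0.0216). In Rosa26(CreER) villi 2 of 8 were higher and 1 lower, led by the same genes (Lamc1 1.71 ± 0.42, Nid2 -1.65 ± 0.27). In Vil1(CreER) crypts 1 of 8 was higher, Col4a1 (2.37 ± 0.43, adjusted p = 0.00472), and 3 lower, and in villi 3 of 6 were higher, Col4a1 among them (2.32 ± 0.81, adjusted p = 0.0346), and 1 lower. Nid2 was lower in both Vil1(CreER) tissues (-2.16 ± 0.24 and -1.51 ± 0.22). Lamc1 had a median of 123 CPM and Nid2 of 16.2 CPM in adult organoids. Col4a1 had a median of 3.47 CPM there and reached 360.1 CPM, so it is also expressed in epithelial culture. Hspg2 and Lamc1 had the highest mean levels of the list in both sets (43 and 20.6 CPM, and 18.8 and 9.57 CPM).

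Of 13 other fibroblast and telocyte markers 8 were tested in Rosa26(CreER) crypts and 1 was called, Pdgfrb, the second receptor for platelet-derived growth factor (1.32 ± 0.37, edgeR adjusted p = 0.0332). In Vil1(CreER) villi Pdgfrb was higher by 2.97 ± 0.43 (adjusted p = 0.000172), at 0.448 to 3.43 CPM in heterozygous and 10.2 to 18.3 CPM in homozygous mice, with 3 of the 5 tested lower, led by Thy1 (-2.28 ± 0.36, adjusted p = 0.000242). Thy1 was also the largest fall in Rosa26(CreER) villi (-1.88 ± 0.39, adjusted p = 0.00414), where 2 of 7 were lower and none higher, and Prrx1 was the 1 of 7 lower in Vil1(CreER) crypts (-2.22 ± 0.59, adjusted p = 0.0265). Pdgfrb had a median of 0.71 CPM and Prrx1 of 4.78 CPM in adult organoids, so both are also expressed in epithelial culture, while Thy1 was at 0 there. The immune gene Cd8a fell in the same villi (-1.39 in Rosa26(CreER) and -2.18 in Vil1(CreER) mice). The part of immune cells in the falls of Thy1 was not tested. C3 and Vim had the highest mean level of this list in Rosa26(CreER) tissue (702 and 70.5 CPM), and Prrx1 and Vim in Vil1(CreER) tissue (17.2 and 14.6 CPM).

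Of 12 further smooth muscle genes 4 to 7 were high enough to be tested in each comparison. Smtn, which encodes smoothelin, was the 1 of 6 lower in Rosa26(CreER) crypts (-0.78 ± 0.11, edgeR adjusted p = 0.0022) and the 1 of 7 lower in Vil1(CreER) crypts (-0.75 ± 0.13, adjusted p = 0.00374). In villi 3 of 4 were lower in the Rosa26(CreER) set, led by Tpm2 (-1.51 ± 0.29, adjusted p = 0.00276), and 3 of 6 lower and 1 higher in the Vil1(CreER) set, led by Tpm2 (-4.16 ± 0.59, adjusted p = 0.000142) and Synm (1.58 ± 0.52, adjusted p = 0.0257). Mylk, the light chain kinase with the highest mean level of this list in both sets (113 and 194 CPM), and Smtn (13.9 and 9.88 CPM) had a median of 27.1 and 9.21 CPM in adult organoids. Both are thus expressed in epithelial culture, unlike Des.

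The pathways that drive these genes were followed by 14 genes of TGF-beta signalling and of serum response factor with its MRTF cofactors. In Rosa26(CreER) crypts 3 of 13 were higher, led by Tgfb1, the ligand (1.91 ± 0.58, edgeR adjusted p = 0.0459), and 1 lower, Mrtfb (-0.67 ± 0.12, adjusted p = 0.00599). In Rosa26(CreER) villi 2 of 12 were higher, led by Smad4 (1.06 ± 0.22, adjusted p = 0.00437). In Vil1(CreER) crypts 4 of 13 were higher and 2 lower, led by Tgfb2 (1.35 ± 0.42, adjusted p = 0.0426) and Mrtfb (-0.46 ± 0.08, adjusted p = 0.00324). The villi of that set had 4 of 12 higher and 3 lower, led by Tgfbr2 (0.86 ± 0.21, adjusted p = 0.00485) and Tgfbr3 (-2.11 ± 0.41, adjusted p = 0.00113). Smad4 and Smad7 had the highest mean level of this list in both sets (197 and 74.2 CPM, and 120.3 and 60.1 CPM). In adult organoids the median was 6.84 CPM for Tgfb1, 173 for Smad4, 7.07 for Smad7, 212 for Tgfbr2 and 105 for Mrtfb. These genes are thus also expressed in epithelial culture. Tgfb2 and Tgfbr3 had medians of 0.127 and 0.0652 CPM there.

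The remaining lists covered cells that neighbour the stroma. The shares of all genes called were again 20.2% and 33.2% in Rosa26(CreER) crypts and villi, and 29.3% and 42.5% in the Vil1(CreER) set. Endothelial genes were called in both directions: 0 of 9 higher and 2 lower in Rosa26(CreER) crypts, 3 of 10 and 2 in villi, 0 of 9 and 3 in Vil1(CreER) crypts, and 2 of 7 and 3 in villi. Tie1, an endothelial receptor, was the largest rise in villi of both sets (3.68 ± 0.67, edgeR adjusted p = 0.00237, and 3.26 ± 0.80, adjusted p = 0.00526). Prox1, a transcription factor of lymphatic endothelium, fell in all 4 comparisons, by -2.08 and -3.51 in Rosa26(CreER) crypts and villi and -3.53 and -4.48 in Vil1(CreER) crypts and villi. It had a median of 4.79 CPM in adult organoids and is thus also expressed in epithelial culture, as is Lyve1 with 3.92 CPM. Tek had the largest fall in Vil1(CreER) crypts (-3.57 ± 0.68, adjusted p = 0.00582). Pecam1 and Lyve1 had the highest mean level in both sets (4.34 and 4.22 CPM, and 8.11 and 3.69 CPM). No pericyte gene was called among the 3, 1 and 1 tested in the first 3 comparisons, and none was testable in Vil1(CreER) villi. Cspg4 and Kcnj8 led that list in level in the Rosa26(CreER) set (0.583 and 0.528 CPM), and Notch3 and Kcnj8 in the Vil1(CreER) set (0.446 and 0.18 CPM).

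Among enteric glia and neuron genes none was called in the Rosa26(CreER) tissues or in Vil1(CreER) crypts. Ret, the receptor of enteric neurons for glial-derived growth factors, fell in Vil1(CreER) villi (-1.19 ± 0.29, edgeR adjusted p = 0.00523), and its mean level was 4.09 CPM in the Rosa26(CreER) and 2.33 CPM in the Vil1(CreER) set. It had a median of 3.65 CPM in adult organoids, so it is also expressed in epithelial culture. Kit, a receptor that marks interstitial cells of Cajal, fell in all 4 comparisons, by -1.43 and -1.29 in Rosa26(CreER) crypts and villi and -1.71 and -1.99 in Vil1(CreER) crypts and villi. Ano1, the chloride channel of these cells, rose in the villi of both sets (Rosa26(CreER) 1.85 ± 0.4, Vil1(CreER) 4.02 ± 0.33) and also in the crypts of the latter (2.63 ± 0.23), and Etv1 had the largest falls in the Vil1(CreER) set (-2.59 and -3.3). Kit and Ano1 had the highest levels of the 3 genes (26.7 and 5.61 CPM, and 19.3 and 8.83 CPM), and medians of 29.9 and 85.9 CPM in adult organoids.

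Immune genes had 3 of 12 lower in Rosa26(CreER) villi, led by Cd8a (-1.39 ± 0.29, edgeR adjusted p = 0.00505), and 4 lower and 1 higher in Vil1(CreER) villi, led by Cd8a (-2.18 ± 0.35) and Cd68 (1.24 ± 0.28). Lyz2 and Ptprc had the highest levels in the Rosa26(CreER) set (225 and 57.1 CPM), and Ptprc and Ms4a1 in the Vil1(CreER) set (112 and 41.6 CPM). Upk3b led the mesothelial list in both (18.6 and 1.5 CPM), followed by Msln (13.9 CPM) and Lrrn4 (0.765 CPM). Of 8 epithelial genes 2 were lower in Rosa26(CreER) crypts, 4 higher and 1 lower in Rosa26(CreER) villi, 2 higher and 2 lower in Vil1(CreER) crypts, and 5 higher and 2 lower in Vil1(CreER) villi. Krt18 had the largest fall in the Rosa26(CreER) set (-0.86 and -1.16) and Vil1 in the other (-1.01 and -0.56), and Krt19 the largest rise where any was called (0.83, 0.66 and 1.48). Krt8 had the highest level (3317 and 2582 CPM), followed by Epcam (2101 CPM) and Vil1 (2234 CPM).

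The adult organoids show what the 10 genes look like without a gut wall. In the 34 adult organoid libraries Col3a1, Dcn and Lum had 0 reads in every one, and Col1a2 and Des had 1 and 2 reads in all. A count of 0 allows up to 0.0927 to 0.347 CPM per library in the table of the first set and the A-485 organoids. Col1a1 had 38 reads over the 34 libraries, at most 0.238 CPM. Against this reference the lowest crypt library of the Rosa26(CreER) set held 12.7 CPM of Dcn.

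Pdgfra and the muscle genes were not fully absent from epithelial culture. Pdgfra had a median of 0.17 CPM and a maximum of 0.734 CPM, with 10 libraries at 0. Acta2 had 17 and Myh11 20 libraries at 0, with maxima of 1.06 and 0.664 CPM. Tagln was found in all but 3 libraries, at a median of 0.47 and a maximum of 2.67 CPM. The levels of Tagln in tissue, 0.13 to 1.18 CPM in the Rosa26(CreER) and 0.34 to 1.84 CPM in the Vil1(CreER) set, lie within the range of the organoids. The same holds for Pdgfra in the Vil1(CreER) set, at 0 to 0.522 CPM.

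Loss of Eif4g2 in culture gave no edgeR call among the members. In the first organoid set Tagln, the only member tested, had 0.309, 0.467 and 1.2 CPM with DMSO and 0.872, 0.537 and 0.924 CPM with 4-OHT, which overlapped, while 51.2% of all genes did not overlap (0.23 ± 0.52, edgeR adjusted p = 0.765; 0 of 1 called, 0 at an unadjusted p under 0.05, 0 by DESeq2, against 35.4% of all genes). In the second set Tagln had 0.811, 0.992, 0.833 and 0.653 CPM in flox/flox and 0.171 to 0.724 CPM in the 4 flox/+ organoids, which overlapped (0.75 ± 0.43, adjusted p = 0.174; 0 of 1 called, 0 at an unadjusted p under 0.05, against 46.8% of all genes). The Eif4g2(+/+) organoids had 0.308, 0.133, 0.271 and 0.0633 CPM. Acta2 in that set had 0 reads in all 4 flox/flox libraries and 0.39, 0.121, 0.0571 and 0.404 CPM in flox/+ libraries. It was too low for edgeR, was the 1 member called by DESeq2, and separated the groups, as did 41.6% of the genes that edgeR tested.

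A-485 left most members at or near 0, and none could be tested by edgeR at any dose, where 19.2%, 49.6% and 62.0% of all genes were called at 3, 5 and 10 µM. Pdgfra had 0.295, 0.734, 0.622 and 0.219 CPM with DMSO and 0, 0, 0.0719 and 0 CPM at 5 µM, without overlap, as for 52.2% of the genes that edgeR tested. At 3 µM it had 0.236, 0, 0.437 and 0 CPM and at 10 µM 0.221, 0.343, 0.205 and 0.231 CPM, so the levels did not fall with dose in order. Tagln had 0.0738, 0, 0 and 0.219 CPM with DMSO, 0.473, 0.83, 0.0875 and 0 CPM at 3 µM, 0.487, 0.168, 0.288 and 2.67 CPM at 5 µM and 0.442, 0.685, 0.205 and 1.73 CPM at 10 µM. DESeq2, with its own filter, called 0, 2 and 1 members at the 3 doses: Pdgfra and Tagln at 5 µM and Tagln at 10 µM.

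Fetal spheroids carried collagen RNA that the organoids largely lacked. Every flox/+ library and every flox/flox library with DMSO had reads of Col1a1, Col1a2 and Col3a1. In flox/+ spheroids with DMSO Col1a1 stood at 2.43, 108, 4.97, 7.65 and 9.26 CPM and Col3a1 at 2.33, 60.9, 5.16, 9.43 and 5.63 CPM in replicates 1 to 5. With 4-OHT Col1a1 was at 7.49, 77.2, 7.25, 0.698 and 0.813 CPM and Col3a1 at 5.09, 49, 4.85, 0.863 and 1.2 CPM. The line behind replicate 2 was the highest in both treatments and for Col1a2 (47.1 and 36.8 CPM), Lum (5.68 and 4.4 CPM) and Pdgfra (6.06 and 4.11 CPM) too. Dcn in that line was 1.82 and 2.63 CPM. In flox/flox spheroids Col1a1 was at 0.319 to 2.44 CPM with DMSO and 0 to 2.26 CPM with 4-OHT. Of 6 members tested there 0 were called by edgeR (0 at an unadjusted p under 0.05, and 0 by DESeq2), against 19.1% of all genes, with Lum at -2.30 ± 1.57 (edgeR adjusted p = 0.342) the largest fitted difference.

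**Figure D5:**
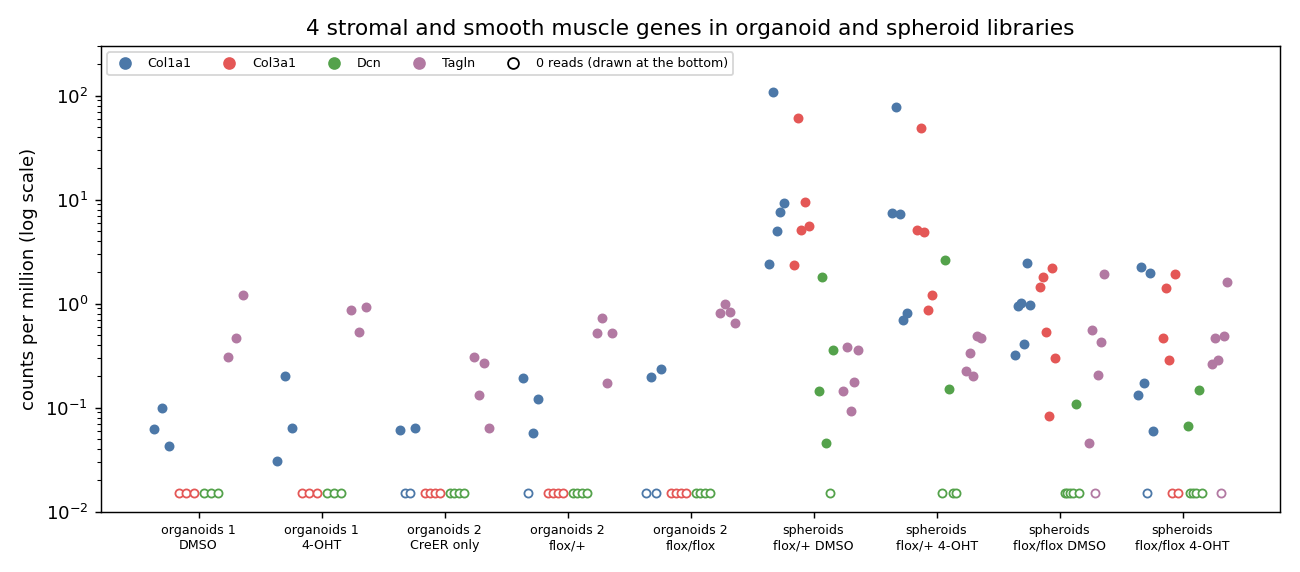
Col1a1, Col3a1, Dcn and Tagln in organoid and spheroid libraries, in CPM on a log axis, 1 point per library, with open circles at 0 reads. Col3a1 and Dcn are at 0 in all organoids, and the line behind replicate 2 of the flox/+ spheroids reaches 108 CPM of Col1a1.

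Genes with the most similar pattern to the members were found per set of mice, from the correlation of log2 CPM with the mean standardised level of the members over all libraries. The libraries share crypt or villus origin and depth, so the values describe likeness only. Over the 19 Rosa26(CreER) libraries the closest of 16495 genes outside the members were Col5a1 (r = 0.971), Col6a2 (0.967), Bgn (0.962), Plau (0.961) and Lhfp (0.96). Among the members themselves Col3a1 and Pdgfra were closest to that mean (0.973 each), Dcn was at 0.871 and Lum at 0.803, while Myh11 (0.392) and Tagln (0.025) did not follow it. Over the 17 Vil1(CreER) libraries, with 8 members high enough to be used, the closest were Capg (0.928), Tnc (0.912), Aacs (0.91), Srf (0.906) and Krt7 (0.904), and Tagln was at 0.254. The 50 closest genes of each set had 7 in common: Col6a2, Bgn, Fbn1, Sparc, Col6a1, Apoe and Col4a2.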

How the data were processed

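Poly(A) RNA was sequenced as strand-marked libraries, per the labels' protocols. The deposited values are unnormalised read counts for each gene, held in 4 tables, and all 92 libraries in 21 groups were used. Per the submitters' processing notes HISAT2 2.0.5 and GRCm38 (mm10) were used; the counting program, annotation and strand setting are not given in the sources used here. All 10 gene identifiers matched GENCODE vM21, and spans matched except for the 5′ end of Acta2. No pair of libraries held identical counts.

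Levels are CPM of the library total. Each comparison was fitted over all genes in edgeR 4.0.16 (R 4.3.3, limma 3.58.1) with filterByExpr, TMM scaling, a robust quasi-likelihood F-test and p-values adjusted by Benjamini-Hochberg, on its 2 groups for tissue, and tested on simulated data first. Calls are adjusted p-values below 0.05. Shares of all genes, for calls and for groups without overlap, are over the genes that passed filterByExpr. Differences are log2 with SE. Alternatives were DESeq2 1.42.0 (its size factors, its Wald test), a replicate, mouse or line block, a filter of only 1 read, all 4 groups in the fit, no mitochondrial genes, Y-linked transcripts or range of animal numbers as a covariate (Rosa26(CreER) only), and leaving out each library. A count of 0 allows 3 reads, which covers counting error only. Depth sets the precision of low genes: 3 reads amount to 0.0927 to 0.347 CPM in the table of the first organoid set and the A-485 organoids, the widest range of the 4 tables.

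Crypt and villus libraries share mice by the animal numbers in the labels (correlations of their deviations from -0.00247 to 0.164 in heterozygous and 0.0423 to 0.281 in homozygous Rosa26(CreER) mice, 0.0481 to 0.296 and -0.0149 to 0.241 in Vil1(CreER) mice), and the mouse is the block there. Vil1(CreER) homozygous crypt replicate 3 and villus replicate 4 are from 1 mouse. The first organoid set, spheroids and A-485 organoids share lines.

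Members and the 13 lists with 129 entries (fibroblast matrix, collagen processing, basement membrane, fibroblast and telocyte, smooth muscle, endothelial, pericyte, enteric glia and neuron, interstitial cells of Cajal, mesothelial, immune, epithelial, TGF-beta and SRF) were chosen with earlier results of these data known. Genes named are the 10 members, Eif4g2, the 2 genes of each list with the highest mean CPM, the called gene with the largest rise and fall in each genotype comparison, and the 5 genes outside the members closest in pattern per set with those in the top 50 of both (log2 of CPM plus 0.1). Prox1 and Kit in comparisons beyond that rule were named after their values were seen. Mrtfb is listed in the tables under an older symbol. One result of the enteric glia and neuron list is not reported here.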

Additional observations from a re-analysis of the deposited data

Results flagged for a closer look

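In groups of 4 to 10 libraries, the highest or lowest library was set against its nearest neighbour and the range of its group. Of 110 member and group pairs with at least 10 reads, 25 stood apart beyond the 95% limit. About 1 in 20 would do so by chance if values were normally distributed and pairs independent. The CPM values are skewed and many pairs share libraries, so the count is not shown to exceed chance. The values are CPM, with the nearest library of the group second.

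In tissue, crypts of Rosa26(CreER) mice had 3 such libraries: Dcn in heterozygous replicate 3 (402, next 122), Myh11 in homozygous replicate 3 (1.23, next 0.242) and Pdgfra in homozygous replicate 4 (110.5, next 19.6). Villi of these mice had Myh11 in heterozygous replicate 3 (1.47, next 0.328) and Lum in homozygous replicate 4 (0.283, next 0.0728, on 9 reads). In Vil1(CreER) villi homozygous replicate 4 stood apart for Myh11 (5.42, next 0.801, on 135 reads) and Des (1.89, next 0.216, on 47 reads), and heterozygous replicate 2 was low for Des (0.034, next 0.112, on 1 read).

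Most of the others came from 1 spheroid line, replicate 2 of the flox/+ spheroids. With 4-OHT it stood apart for Col1a1 (77.2, next 7.49), Col1a2 (36.8, next 2.65), Col3a1 (49, next 5.09), Dcn (2.63, next 0.15), Lum (4.4, next 0.7), Pdgfra (4.11, next 1.3) and Acta2 (0.908, next 0.1). With DMSO it stood apart for Col1a1 (108, next 9.26), Col1a2 (47.1, next 5.98), Col3a1 (60.9, next 9.43) and Dcn (1.82, next 0.356). The same line without and with 4-OHT was thus high in fibroblast genes.

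In flox/flox spheroids replicate 6 was high for Tagln with DMSO (1.93, next 0.562) and with 4-OHT (1.61, next 0.494), and replicate 5 for Col1a1 with DMSO (2.44, next 1.02). In organoids Tagln was high at 5 µM A-485 in replicate 4 (2.67, next 0.487). Myh11 was high in DMSO replicate 1 of the A-485 series (0.664, next 0.0729) and in Eif4g2(+/+) replicate 2 of the second set (0.398, next 0.0633), on 9 reads each.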

How the results depend on the processing

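Over settings other than leaving out a library, 430 member results kept their direction and side of the threshold, 14 reversed, 16 lost and 10 gained a call; leaving out 1 library gave 846, 48, 38 and 7. Replicate numbers do not pair the mice of the genotype comparisons, and the block below uses numbers only there. Depth limits the members with few reads, such as Lum in villi (9 reads over the heterozygous and 12 over the homozygous Rosa26(CreER) libraries).

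Members called changed as follows. In Rosa26(CreER) crypts DESeq2 called 1 (0 in edgeR). In Vil1(CreER) crypts DESeq2 size factors and all 4 groups in the fit gave 0 and DESeq2 and the replicate block 2 (Col3a1 added by the block, 1.44), against 1. In Vil1(CreER) villi DESeq2 gave 5 and all 4 groups 4, against 2. Between crypts and villi, no filter gave 2 against 4 (Rosa26(CreER) heterozygous) and 5 against 3 (Vil1(CreER) heterozygous), and the mouse block 4 against 7 (Rosa26(CreER) homozygous). In culture DESeq2 and no filter gave 1 against 0 in the second organoid set, and DESeq2 2 and 1 against 0 at 5 and 10 µM A-485. All genes called moved to 2967 from 4504 with the Y-linked covariate (Rosa26(CreER) villi), to 2891 with DESeq2, 1221 with no filter and 777 with the block from 1904 (Rosa26(CreER) interaction), and to 4649 from 2864 with the line block (spheroids). The causes were not tested.

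Reversed log2 differences, none past the threshold, were these. With the replicate block: Tagln -0.03 in Rosa26(CreER) crypts, Dcn 0.38 in Rosa26(CreER) villi, Acta2 -0.41 in Vil1(CreER) homozygous crypts minus villi, and in the interactions Dcn -0.15 and Myh11 -0.53 (Rosa26(CreER)) and Acta2 -1.22 and Tagln 0.01 (Vil1(CreER)). With the Y-linked covariate: Tagln -0.98 in Rosa26(CreER) crypts, and Col3a1 -1.19, Pdgfra -0.69, Acta2 -0.13, Myh11 -0.27 and Des -0.65 in villi. With animal numbers as covariate Dcn was 0.07 in these villi.

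Leaving out 1 library gave these ranges. Genes called: 1937 to 4732 in Rosa26(CreER) crypts, 3223 to 5978 in Vil1(CreER) crypts, 1079 to 3068 and 1456 to 3425 in the Rosa26(CreER) and Vil1(CreER) interactions. Members called: 0 to 1 in both crypt comparisons, Rosa26(CreER) villi and A-485 at 5 and 10 µM, 0 to 4 in Vil1(CreER) villi, and 2 to 6 and 2 to 5 between crypts and villi in Rosa26(CreER) heterozygous and Vil1(CreER) homozygous mice. Rosa26(CreER) crypts: Col1a1 -0.04 to 1.81, Dcn -0.02 to 1.16, Lum -0.53 to 1.12, Tagln -0.24 to 0.45. Rosa26(CreER) villi: Col3a1 -0.25 to 0.67, Dcn -0.41 to 0.61, Des -0.06 to 0.94. Crypts minus villi: Acta2 -0.79 to 0.33 (heterozygous) and -0.13 to 1.19 (homozygous) and Des -0.44 to 0.24 in Rosa26(CreER), Acta2 -1.58 to 1.52 in Vil1(CreER) homozygous mice. Interactions: Dcn -0.41 to 1.09, Lum -0.77 to 1.66, Myh11 -0.79 to 1.12 and Pdgfra -0.04 to 2.31 (Rosa26(CreER)), Acta2 -2.18 to 1.22 and Tagln -0.47 to 0.19 (Vil1(CreER)). Vil1(CreER) crypts: Acta2 -0.35 to 2.82. Culture: Tagln -0.14 to 0.96 (first organoids), and Col1a1 -1.14 to 0.07, Pdgfra -0.24 to 0.59 and Tagln -0.32 to 0.06 (spheroids).

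TMM scaling moved the mean level of Tagln to 1.03 from 0.771 CPM (Rosa26(CreER) homozygous villi) and to 0.639 from 0.816 (Vil1(CreER) heterozygous crypts, 1.07 without mitochondrial genes in the total). That total raised Vil1(CreER) homozygous crypt means: Col1a1 4.91 from 3.08, Col1a2 4.62 from 2.95, Col3a1 12.4 from 7.95, Dcn 21.2 from 13.6, Lum 0.725 from 0.454, Myh11 0.431 from 0.275, Pdgfra 0.334 from 0.212 and Tagln 1.8 from 1.16.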
